A study of Homo sapiens with 7 samples.

Results

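The regions described here are 739 steep timing transition windows of the human bone cancer line U2OS, stretches of 250 kb where replication passes from early to late S phase between one neighbour and the other. They were chosen by a rule on the 2 automated U2OS arrays. Autosomes were cut into windows of 250 kb, the probes of a window were averaged as log2(early/late), and windows were ranked from 0 (latest) to 1 (earliest) within each array. A window entered when its left and right neighbours differed in rank by at least 0.35 in the same direction on both automated arrays. This held for 739 of 10374 windows that had both neighbours. Along the chromosome, 353 ran from late to early and 386 from early to late. The early neighbour, the window itself and the late neighbour are called the early, middle and late window, and the step is the rank of the early window minus that of the late window. A step on another array is positive when it runs in the direction of the automated arrays.

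The series measured replication timing in growing U2OS cells and in growing K562 cells, a suspension line from chronic myeloid leukaemia. Neither line carried a stated genetic change, and all cells received bromodeoxyuridine, a thymidine analogue, at 50 µM for 2 h before they were sorted by DNA content into fractions of early and late S phase. Early nascent DNA carried Cy3 and late nascent DNA carried Cy5 on all 7 arrays, without a dye swap. U2OS was measured on 2 arrays titled manual and 2 titled automated, K562 on 1 array each after a new and an old cell sorting method and on 1 array labelled 44k. Both are established lines grown as cultures, and no label says whether 2 arrays of a group came from separate cultures, so p-values measure only the spread between these arrays, which may be technical. The 2 K562 arrays in the tests differ in sorting method, so the spread shared by both lines also holds the method.

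Mammalian chromosomes replicate in megabase domains in which many origins fire at nearly the same time. Between an early and a late domain lies a timing transition region, which is copied progressively later by forks moving out of the early domain or by origins firing in sequence. Early domains tend to hold many active genes and late domains few genes or large tissue-specific ones, and the place of a transition can differ between cell types.

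Brightness was unequal between arrays. The median background-subtracted probe signal lay between 78.1 and 258 units in the early channel and between 59.7 and 324 units in the late channel. The manual U2OS arrays were the dimmest, at 78.3 and 78.1 units in the early channel. Probes well above background in the late channel made up 61.2% and 41.4% on the manual arrays, 96.5% and 97.0% on the automated arrays, 60.6% and 76.8% on the K562 arrays (new, then old sorting) and 9.0% on the array labelled 44k. In the early channel the old-sorting K562 array stood apart, with 45.6% of probes well above background against 74.8% to 94.5% on the other arrays. Ranks within an array were used because of these differences. The number of arrays limits the precision of every value below.

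Probes of 4 windows are printed to show what a transition is made of, 1 probe each from the middle of the early, the middle and the late window. The letters are the deposited 60-base probes on genome build hg19, as listed in the array files, which do not give the strand. Capitals mark runs of at least 6 letters that are all A or T. Such runs occurred in 74.0%, 74.7% and 74.8% of the probes of the early, middle and late windows, against 74.0% in the middle windows of the whole table, so the shares differed little. Exon and intron positions were not determined, because no annotation of that build was used here.

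The first set runs from the early side of the ABCA13 transition, chr7:48120121-48120180, through a probe named for ABCA13 at chr7:48377993-48378052, to a later ABCA13 probe at chr7:48624602-48624661. It is shown as the largest step that ran from early to late along the chromosome.
ABCA13 early: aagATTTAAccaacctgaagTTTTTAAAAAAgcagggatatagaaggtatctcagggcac
ABCA13 middle: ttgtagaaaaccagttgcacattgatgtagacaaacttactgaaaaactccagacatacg
ABCA13 late: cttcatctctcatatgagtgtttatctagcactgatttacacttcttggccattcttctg
On automated array 1 these 3 probes read 0.76, -0.61 and -2.42 (log2 early/late), and on automated array 2 they read 0.62, -0.97 and -1.70. On manual array 1 they read 0.98, -0.28 and -2.03, and on manual array 2 they read 0.69, -0.80 and -1.30. All 4 U2OS arrays thus fell from above 0 to below -1 over the same bases. The new-sorting K562 array was late at all 3 probes, with -1.56, -2.79 and -2.38, and the old-sorting array read -0.63, -0.35 and -0.45.

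The second set lies in and beside PTPRM on chromosome 18, shown as the largest step that ran from late to early along the chromosome. The late probe at chr18:8128154-8128213 and the middle probe at chr18:8370839-8370898 are named for PTPRM, and the early probe at chr18:8624544-8624603 for RAB12.
PTPRM late: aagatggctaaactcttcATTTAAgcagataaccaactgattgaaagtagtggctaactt
PTPRM middle: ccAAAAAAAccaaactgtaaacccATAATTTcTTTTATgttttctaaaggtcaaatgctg
RAB12 early: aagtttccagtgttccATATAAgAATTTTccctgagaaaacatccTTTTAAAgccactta
The late probe read -2.04 and -1.56 on the automated, -0.37 and -1.37 on the manual ones and -1.34 and -0.35 on the K562 arrays (new, then old sorting). The early probe read 1.90 and 1.0 on the automated, 1.78 and 1.30 on the manual ones and 1.08 and 0.05 on the K562 arrays. The early probe was above the late probe on every one of these 6 arrays.

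The third set spans the step at PDGFRA and KIT on chromosome 4, shown for the largest difference between the lines. The early probe, at chr4:55124472-55124531, is named for PDGFRA. The middle probe at chr4:55344476-55344535 and the late probe at chr4:55612873-55612932 carry no gene name.
PDGFRA early: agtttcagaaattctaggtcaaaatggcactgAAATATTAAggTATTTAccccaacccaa
PDGFRA-KIT middle: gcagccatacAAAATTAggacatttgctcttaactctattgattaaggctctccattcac
KIT side late: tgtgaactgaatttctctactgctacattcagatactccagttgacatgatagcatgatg
The PDGFRA probe read 1.98 and 1.32 on the automated and 1.79 and 1.54 on the manual U2OS arrays, but -0.33 and -0.26 on the K562 arrays. The late probe read -1.75 and -1.38 on the automated and -3.00 and -1.53 on the manual U2OS arrays, and -0.77 and -0.68 on the K562 arrays.

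The fourth set lies within DLG2 on chromosome 11, shown for the smallest difference between the lines. All 3 probes are named for DLG2, at chr11:84616970-84617029, chr11:84876133-84876192 and chr11:85115653-85115712.
DLG2 late: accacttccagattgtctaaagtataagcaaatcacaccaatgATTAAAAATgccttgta
DLG2 middle: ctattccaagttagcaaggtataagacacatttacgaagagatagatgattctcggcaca
DLG2 early: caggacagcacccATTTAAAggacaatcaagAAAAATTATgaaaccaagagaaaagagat
From late to early these probes read -1.78, -1.16 and -0.07 on automated array 1 and -2.62, -2.08 and -0.03 on the new-sorting K562 array. Single probes carry noise, and manual array 1 read -1.13, -1.20 and -0.93 at the same 3 places. The window means below average over this noise.

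**Figure D1:**
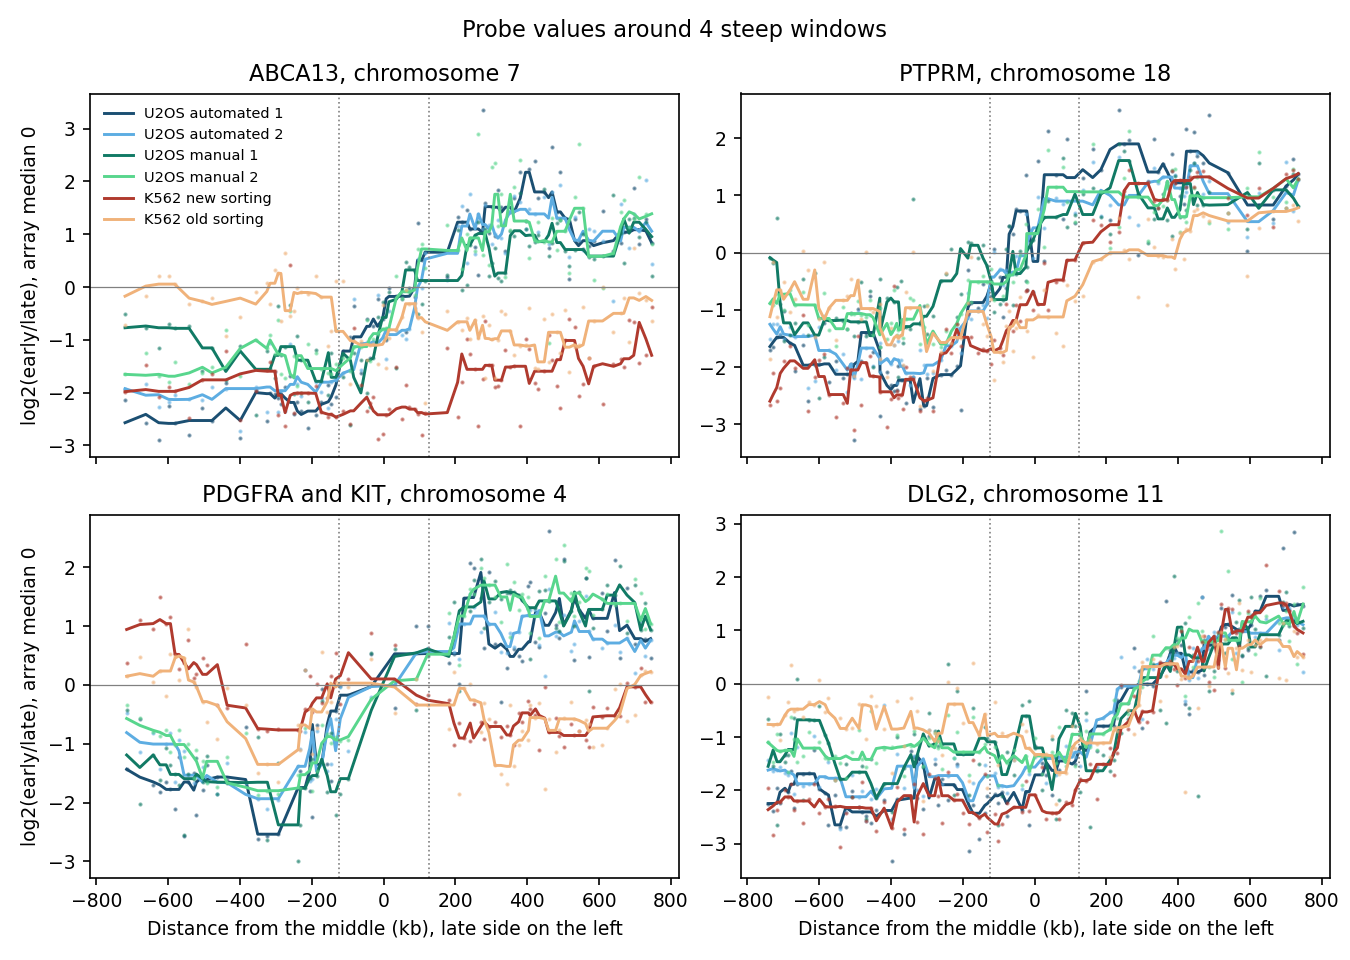
Log2(early/late) of single probes (dots) and their running median over 5 probes (lines) against distance from the middle of 4 windows in kb, late side on the left, each array centred on its median, with the edges of the middle window dotted. The new-sorting K562 line stays below 0 at ABCA13, and the K562 arrays follow the U2OS arrays in direction at PTPRM and DLG2, and lack the U2OS step between PDGFRA and KIT.

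The windows were spread over all 22 autosomes. The share of windows that were steep was highest on chromosome 8 (10.1%), chromosome 16 (9.25%) and chromosome 14 (9.01%), and lowest on chromosome 22 (2.27%), chromosome 13 (2.62%) and chromosome 19 (3.23%). Adjacent steep windows share a neighbour, so they were grouped into 548 runs, of which 378 were single windows, 150 held 2 windows, 19 held 3 and 1 held 4. The median distance between neighbouring runs was 3.19 Mb (middle 50% 1.5 to 5.72 Mb). Within 5 Mb of the first or last window of a chromosome lay 46 members, 6.22%, against 7.75% of all windows. On the manual arrays, the early stretch next to a step (windows in a row above rank 0.5) had a median length of 1.5 Mb (middle 50% 0.75 to 2.50 Mb), and the late stretch below 0.5 a median of 1.5 Mb (0.75 to 3.25 Mb). These include lengths of 0 at 111 members on the early and 56 on the late side, where the neighbour was on the other side of rank 0.5.

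On the arrays that chose them, the windows had a median step of 0.44 and 0.46 in rank, and these values are a description only. Windows on either side of the threshold differed little from each other in the values that chose them. Just inside, a window named for VPRBP, GRM2 and RAD54L2 on chromosome 3 (51500001 to 51750000) had a lesser automated step of 0.35 and steps of 0.30 and 0.32 on the manual arrays. One within CACNA2D3, a calcium channel subunit gene, on chromosome 3 (54500001 to 54750000) had manual steps of 0.37 and 0.29, and one at VTA1 and NMBR on chromosome 6 (142250001 to 142500000) had 0.27 and 0.37. Just outside lay the HOXA cluster of homeobox genes on chromosome 7 (27000001 to 27250000), with manual steps of 0.25 and 0.28, PARM1 on chromosome 4 (75750001 to 76000000), with 0.32 and 0.37, and KCTD16 on chromosome 5 (143750001 to 144000000), with 0.09 and 0.11.

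The first question was whether the steps were there on the manual U2OS arrays, which the rule did not use. Over the 739 windows, the step on manual array 1 ranged from -0.14 to 0.99 with a median of 0.46, and on manual array 2 from -0.01 to 0.95 with a median of 0.46. Over all windows the medians were 0.11 and 0.11. The step ran the opposite way at 4 windows on manual array 1 and at 1 window on manual array 2. With limma, 688 of the 739 windows (93.1%) had a manual step different from 0 in the direction of the automated arrays at an adjusted p under 0.05, where 28.1% of all windows did so. No window had a called step in the opposite direction, against 0.771% of all windows. The other 51 windows had a median manual step of 0.15, and their median automated step was 0.42 against 0.45 for the called windows. At 47.1% of these 51, at least 1 of the 3 windows held fewer than 10 probes, against 42.9% of the called ones. Over all members this held at 319 (43.2%), against 38.7% of all windows. With either manual array left out fewer members were called, and the share over all windows was not counted for those fits.

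When the rule itself was run on the manual arrays it chose 887 windows, 8.55% of all. They held 454 of the members, which is 61.4% of the members and 51.2% of the manual list, all in the same direction.

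**Figure D2:**
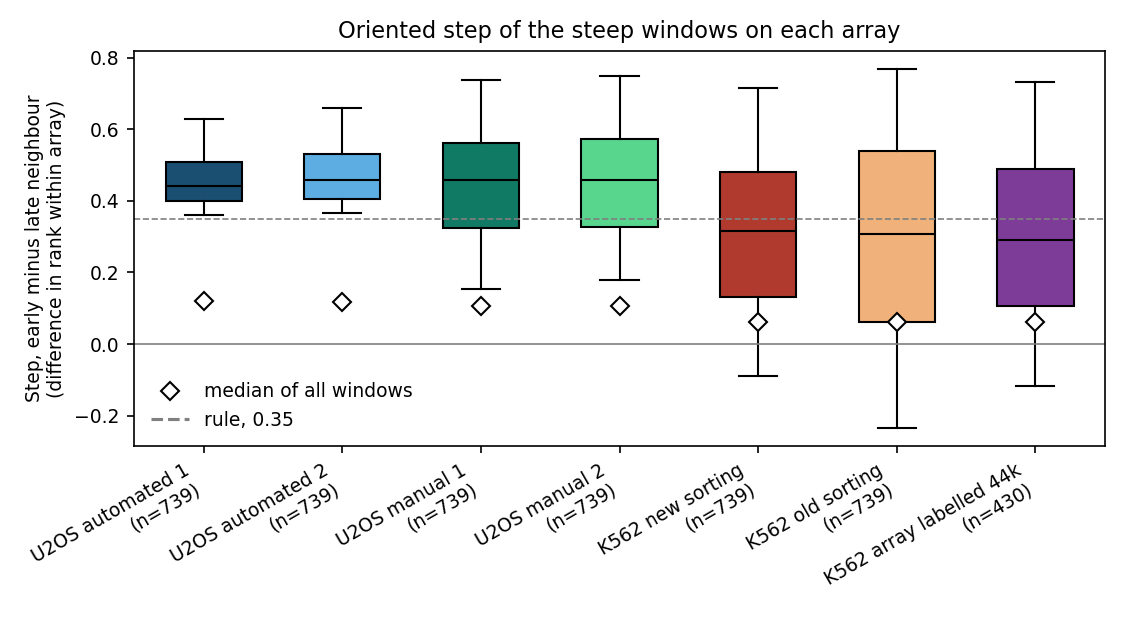
Step in rank (early minus late neighbour) of the steep windows on each array, as boxes of the middle 50% with the median and whiskers to the 5th and 95th percentile, with the median over all windows as a diamond and the rule's 0.35 as a dashed line. The automated arrays chose the windows; the manual medians lie at 0.46 and the K562 medians at 0.32, 0.31 and 0.29.

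The shape of the transition was read from probe values in 50-kb bins, each array centred on its median and divided by its median absolute deviation (MAD). On all 4 U2OS arrays the mean was lowest 325 kb from the middle on the late side and highest 475 to 575 kb away on the early side. From lowest to highest, the mean rose by 1.46 and 1.46 MADs on the automated and by 1.47 and 1.55 MADs on the manual arrays. The passage from 25% to 75% of this rise took 247 and 239 kb on the automated and 251 and 242 kb on the manual arrays. Each bin averaged 701 to 734 windows, but only 449 (late side) to 606 (early side) on the array labelled 44k. Around the steep windows the K562 arrays rose by 1.08 MADs (new sorting), 0.92 MADs (old sorting) and 1.11 MADs (array labelled 44k). In the same order, the passage took 297, 263 and 281 kb. Averages over windows whose steps are shifted against each other can be wider than a single step, so these lengths describe the mean profile. They are also bounded below by the 50-kb bins, and the windows of the rule are 250 kb long. The automated arrays chose, oriented and centred the windows, so their profiles are a description only. A lower and wider rise in K562 is favoured by a choice made in U2OS.

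On the log2 scale, where arrays were not brought to a common spread, the new-sorting K562 array had a median slope of the probes on position like that of the manual arrays. The median slope was 0.38 and 0.33 log2 units per 100 kb on the automated, 0.25 and 0.26 on the manual arrays, then 0.25 and 0.12 on the K562 arrays (new, then old sorting). The slope ran in the direction of the rule at 734 and 738 windows on the manual ones and at 655 and 589 windows on the K562 arrays. The sum of both channels, each over its array's median, differed between the early and late window by medians of -0.16 to 0.02 on the log2 scale, where the median log2(early/late) differed by 0.64 to 1.96. Whether the sum has a part in the step was not tested.

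**Figure D3:**
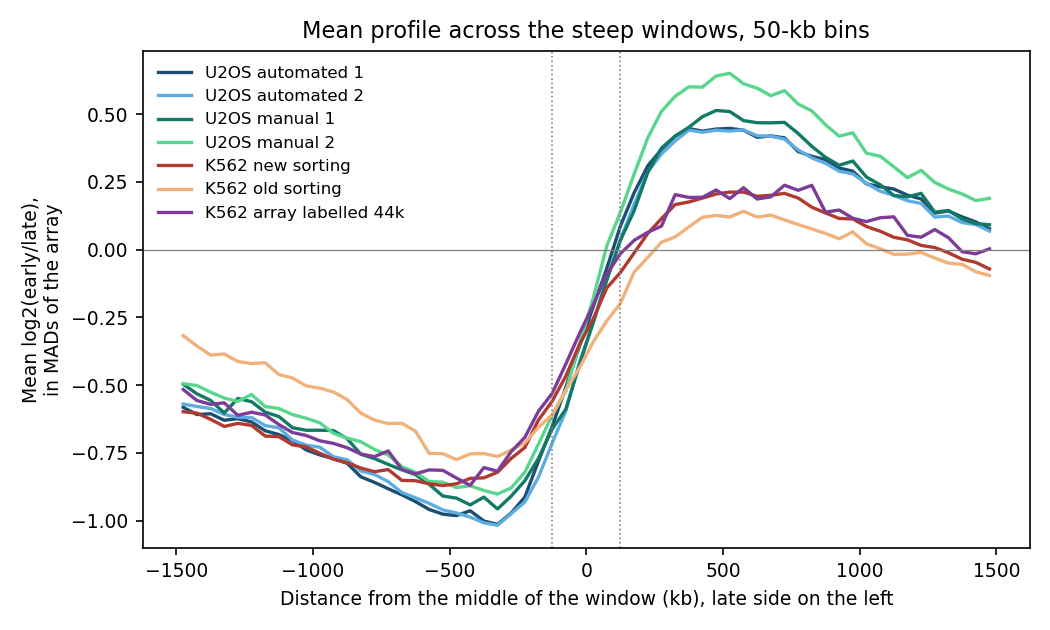
Mean log2(early/late) of the probes around the steep windows in MADs of each array, in 50-kb bins against distance from the middle in kb, late side on the left, 1 line per array, with the edges of the middle window dotted. The automated arrays chose the windows. The 4 U2OS lines rise by 1.46 to 1.55 MADs and the 3 K562 lines by 0.92 to 1.11 MADs. The array labelled 44k averages fewer windows per bin (449 to 606) than the other arrays.

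Of the strongest steps, 4 are given for each direction. A difference between the lines was called at 6 of these 8, where 21.7% of all members and 10.2% of all windows had one. Choosing the largest steps in U2OS favours a smaller step in K562. At ABCA13, a gene of the ATP-binding cassette transporter family, the middle window is chromosome 7, 48250001 to 48500000. Its early neighbour holds probes named for HUS1, a DNA damage checkpoint gene, and UPP1, a uridine phosphorylase gene. The step was 0.89 and 0.90 on the automated and 0.71 and 0.93 on the manual arrays, a manual mean of 0.82 ± 0.16 (SD, n = 2; adjusted p = 0.0006, limma). On the K562 arrays it was 0.17 (new sorting) and -0.30 (old sorting), and 0.13 on the array labelled 44k. The K562 values lay below both manual values, and the difference was -0.89 (SE 0.15; adjusted p = 0.0102, limma).

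At GRIN2B, a subunit gene of the NMDA glutamate receptor, on chromosome 12 (13750001 to 14000000), all 3 windows held probes named for the gene. The step was 0.84 and 0.81 on the automated and 0.67 and 0.46 on the manual arrays. In K562 it was 0.06 and -0.05, and the difference of -0.56 passed the test (SE 0.10; adjusted p = 0.0143, limma). At SYT16, a synaptotagmin family gene, on chromosome 14 (62500001 to 62750000), the manual steps were 0.93 and 0.78 and the K562 steps 0.49 and 0.24. This K562 step was smaller than in U2OS, with a difference of -0.49 (adjusted p = 0.0251, limma), but was itself above 0 (adjusted p = 0.00557, limma). At ADCY8, an adenylyl cyclase gene, on chromosome 8 (132000001 to 132250000), the manual steps were 0.63 and 0.66 and the K562 steps 0.25 and -0.01. The difference was -0.52 (adjusted p = 0.0181, limma). The late windows at SYT16 and ADCY8 held 7 probes each.

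Among the strongest steps that ran from late to early along the chromosome, the one at PTPRM, a receptor-type tyrosine phosphatase gene, on chromosome 18 (8250001 to 8500000) was present in both lines. It was 0.88 and 0.86 on the automated, 0.53 and 0.77 on the manual, 0.66 and 0.44 on the K562 arrays (new, then old sorting) and 0.57 on the array labelled 44k. The manual and K562 values overlapped, and the difference of -0.10 (SE 0.11) did not pass the test (adjusted p = 0.636, limma). A window on chromosome 8 (123250001 to 123500000) without a gene symbol had manual steps of 0.52 and 0.75 and K562 steps of 0.47 and 0.34, and its difference of -0.24 did not pass (adjusted p = 0.193, limma). At TENM2, a teneurin cell adhesion gene that the array names ODZ2, on chromosome 5 (166500001 to 166750000), the manual steps were 0.49 and 0.56 and the K562 steps 0.03 and -0.10, a difference of -0.56 (adjusted p = 0.0107, limma). Its late window held 5 probes. At XPNPEP1 on chromosome 10 (111500001 to 111750000), beside the early genes ADD3, a membrane skeleton gene, and MXI1, a partner of MAX, the manual steps were 0.96 and 0.88. The K562 steps there were 0.35 and 0.63, and the difference was -0.43 (adjusted p = 0.0396, limma). The late window beside XPNPEP1 held 7 probes.

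Leaving out a manual array ended each of these 6 calls. Without manual array 1 the difference at GRIN2B was -0.45 (adjusted p = 0.18, limma), and without manual array 2 the one at ABCA13 was -0.78 (adjusted p = 0.0533, limma). At SYT16, ADCY8, TENM2 and XPNPEP1 the call was lost without either manual array, with differences of -0.38 to -0.59 and adjusted p of 0.0963 to 0.292 (limma).

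The second question was how far the steps chosen in U2OS were found in K562. Their median was 0.32 on the new-sorting array, 0.31 on the old-sorting array and 0.29 on the array labelled 44k, which covered 430 of the windows. Over all windows these medians were 0.06, 0.06 and 0.06. The step ran the opposite way at 85 windows on the new-sorting, 144 on the old-sorting and 59 on the array labelled 44k. With limma on the new- and old-sorting arrays, 461 of the 739 windows (62.4%) had a K562 step in the U2OS direction, where 25.4% of all windows did so. A step in the opposite direction was called at 13 windows (1.76%), against 7.08% of all windows. The rule run on these 2 K562 arrays chose 1039 windows, 10.02% of all, of which 234 were members, 31.7% of the members and 22.5% of the K562 list. All 234 ran in the same direction as in U2OS, and 8.77% of all windows met the rule on the K562 arrays in the U2OS direction.

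The difference between the lines was tested at each window. The K562 step was smaller than the manual U2OS step, or reversed, at 153 windows (20.7%), against 7.43% of all windows, and larger at 7 windows (0.947%), against 2.79%. In either direction the count was 160 windows, 21.7% against 10.2%. Both K562 values lay below both manual values at 370 windows (50.1%), against 34.0% of all. Windows picked for a large step in U2OS are favoured to have a smaller step elsewhere, so the excess of smaller steps is in part fixed by the choice. The count also changed with the arrays that set the spread. With a manual array left out, the spread comes only from the 2 K562 arrays, which differ in sorting method. With a K562 array left out, it comes only from the 2 manual arrays. The shares over all windows were not counted with an array left out. Without manual array 1 the count in either direction was 8, and without manual array 2 it was 21, whereas without the new-sorting K562 array it was 319 and without the old-sorting array 247. Both manual arrays sat on 1 slide and no slide held both lines, so slide and cell line cannot be told apart.

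Put together, 434 windows had a called K562 step with no called difference from U2OS, 20 a called but smaller step, and 7 a called and larger one. At 121 windows the K562 step was not called and was smaller than in U2OS, and at 144 neither test passed. Of the 13 reversed steps, 12 also differed from U2OS. The shares of these combined classes over all windows were not counted, so the counts are a description of the members.

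**Figure D4:**
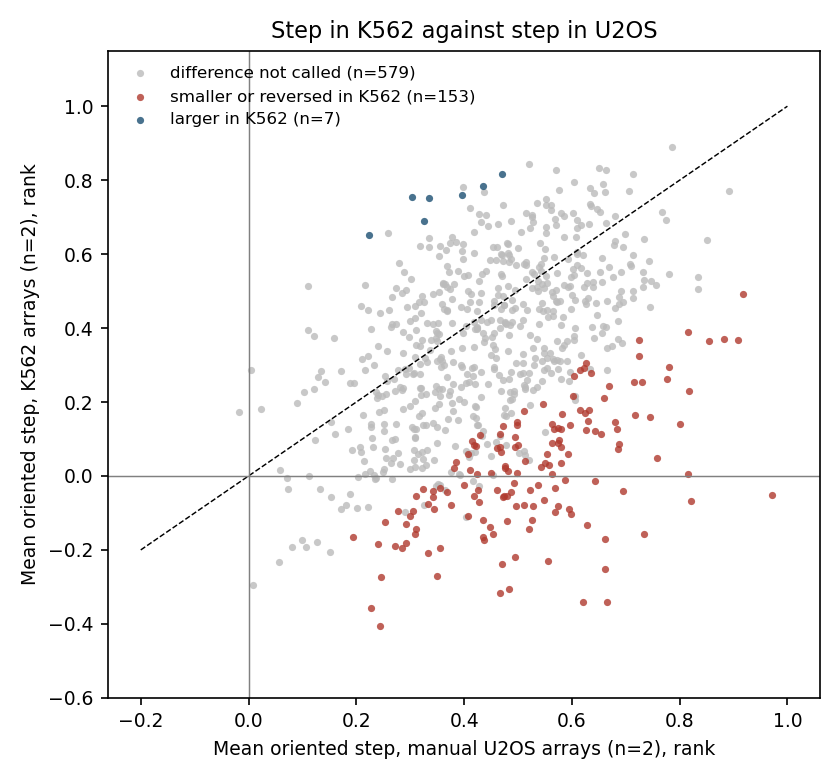
Mean step in rank of each of the 739 steep windows on the 2 K562 arrays (new and old sorting, vertical) against the 2 manual U2OS arrays (horizontal), coloured by the limma test of the difference, with equality dashed. The 153 smaller or reversed steps lie below the line and the 7 larger ones above it.

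The largest difference lay between PDGFRA and KIT, 2 receptor tyrosine kinase genes that sit side by side, on chromosome 4 (55250001 to 55500000). PDGFRA was on the early and KIT on the late side in U2OS. The step was 0.51 and 0.62 on the automated and 0.99 and 0.95 on the manual arrays, against -0.05 and -0.05 on the K562 arrays, a difference of -1.02 (SE 0.09; adjusted p = 0.00265, limma). The PDGFRA window ranked 0.78 and 0.83 on the automated and 0.999 and 0.997 on the manual arrays, with 0.46 and 0.21 on the K562 arrays, a called difference of -0.66 (adjusted p = 0.0313, limma). The KIT window ranked 0.26 and 0.21 on the automated, 0.01 and 0.04 on the manual ones and 0.51 and 0.26 on the K562 arrays. Its difference of 0.36 did not pass the test (adjusted p = 0.0958, limma).

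At DNAH5, a dynein heavy chain gene of motile cilia, on chromosome 5 (13500001 to 13750000), the step ran the opposite way in K562. It was 0.68 and 0.65 on the manual arrays but -0.28 and -0.40 on the K562 arrays, a difference of -1.01 (SE 0.09; adjusted p = 0.00289, limma). The early window ranked 0.76 and 0.96 on the manual arrays but 0.03 and 0.09 on the K562 arrays. The late window at DNAH5 held only 4 probes, and the array labelled 44k gave no step there. At SNAI2, a zinc-finger repressor gene active in mesenchymal cells, on chromosome 8 (49750001 to 50000000), the manual steps were 0.53 and 0.71 and the K562 steps -0.22 and -0.46, a difference of -0.96 (SE 0.11; adjusted p = 0.00545, limma). Here the late window was the side that passed, with ranks of 0.07 and 0.06 in manual U2OS and 0.55 and 0.60 in K562 (adjusted p = 0.0299, limma).

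A window on chromosome 3 (22750001 to 23000000) had no gene name in the middle window, manual steps of 0.70 and 0.76 and K562 steps of -0.04 and -0.27, a difference of -0.89 (SE 0.10; adjusted p = 0.00545, limma). Its early window, which held 7 probes, ranked 0.74 and 0.90 in manual U2OS and 0.01 and 0.01 in K562. The differences in step at these 4 windows passed the test with each of the 4 arrays left out in turn. Those in the rank of a single side did not pass without either manual array, with adjusted p of 0.169 to 0.278 (limma).

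With DNAH5 and SNAI2, the windows at SCN3B, at GBX2 and beside SASH1 were 5 of the 13 with a called reversed step in K562. At SCN3B, a sodium channel subunit gene, on chromosome 11 (123500001 to 123750000), the manual steps were 0.31 and 0.18 and the K562 steps -0.29 and -0.52, with -0.44 on the array labelled 44k. The K562 mean of -0.41 ± 0.16 (SD, n = 2) was below 0 (adjusted p = 0.00256, limma). At GBX2, a homeobox gene, on chromosome 2 (237000001 to 237250000), the manual steps were 0.20 and 0.25, which did not pass the test (adjusted p = 0.0981, limma), and the K562 steps -0.14 and -0.57. On chromosome 6 (148250001 to 148500000), with SASH1, a scaffold protein gene, on the early side, the manual steps were 0.50 and 0.43 and the K562 steps -0.17 and -0.47. The reversed calls at GBX2 and SASH1 needed the old-sorting array: without it the K562 steps were -0.14 (adjusted p = 0.188, limma) and -0.17 (adjusted p = 0.114, limma).

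Which side of the step moved was asked of the window ranks. The early window was later in K562 at 53 of the 739 windows, 7.17% against 3.94% of all windows, and earlier at 7, 0.947% against 1.37%. The late window was earlier in K562 at 31 windows, 4.19% against 2.13%. The middle window was earlier at 20 (2.71% against 1.76%) and later at 21 (2.84% against 2.96%), near the share over all windows. Without either manual array the counts of 53 and 31 fell to 0. Without the new-sorting K562 array they were 212 and 139, and without the old-sorting array 123 and 141. They also moved with the processing, to 129 and 105 with the deposited ratio, 101 and 63 with probes well above background, and 100 and 47 with normexp background correction. For none of these fits was the share over all windows counted. Among the 153 windows with a smaller step, the early window was called later at 46 and the late window called earlier at 23, with neither called at 84. In these 153, the median rank of the early window was 0.76 and 0.77 on the manual ones and 0.44 and 0.27 on the K562 arrays, and that of the late window 0.16 and 0.19 on the manual ones and 0.37 and 0.35 on the K562 arrays. The larger part of the difference was on the early side at 101 and on the late side at 52. The 153 were chosen for a smaller K562 step on these same arrays. A later early window or an earlier late window in K562 is thus in part fixed by that choice, and these values are a description. Choosing the 739 windows in U2OS favours the same directions.

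Steps shared most closely by both lines lay at genes of several kinds. At MRPS9, a mitochondrial ribosomal protein gene, on chromosome 2 (105500001 to 105750000), the step was 0.68 and 0.54 on the manual, 0.61 and 0.61 on the K562 arrays and 0.72 on the array labelled 44k. The groups overlapped, with a difference of -0.002 (SE 0.09). At SND1 and PAX4, the latter a homeobox gene of pancreatic endocrine cells, on chromosome 7 (127250001 to 127500000), the manual steps were 0.50 and 0.31 and the K562 steps 0.34 and 0.48. Between RAB3IP and CNOT2, a subunit gene of the main deadenylase complex, on chromosome 12 (70250001 to 70500000), they were 0.45 and 0.38 in manual U2OS and 0.41 and 0.42 in K562. At GLIPR1 on chromosome 12 (75750001 to 76000000) they were 0.26 and 0.32 in manual U2OS and 0.51 and 0.07 in K562, and the K562 call was lost without the new-sorting array (adjusted p = 0.53, limma). The late window at GLIPR1 ranked lower in K562, a called difference of -0.38 (adjusted p = 0.0484, limma). Its early window also differed by -0.38, which did not pass (adjusted p = 0.144, limma). These windows were picked for the likeness of their mean steps, so the closeness is a description.

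Common fragile site genes are very large genes that break under replication stress and often replicate late. A list of them was read at every window, and 11 members held at least 1 in the middle window, 1.49% against 1.42% of all windows, which is near the background. DLG2, a synaptic scaffold gene, accounted for 5 of the 11 and gave a timing valley with a wall on each side. On its left wall (chromosome 11, 83000001 to 83250000) the step was 0.54 and 0.62 on the automated, 0.55 and 0.72 on the manual, 0.66 and 0.80 on the K562 arrays and 0.60 on the array labelled 44k. On its right wall (85000001 to 85250000) it was 0.56 and 0.66 on the automated, 0.69 and 0.85 on the manual, 0.73 and 0.70 on the K562 arrays and 0.66 on the array labelled 44k. Manual and K562 values overlapped at both walls, and the differences of 0.09 (SE 0.10) and -0.05 (SE 0.10) did not pass the test (adjusted p = 0.614 and 0.775, limma).

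The remaining DLG2 windows, at 83250001, 84750001 and 85250001, had K562 means of 0.46, 0.26 and 0.55, each called. The call at 84750001 was lost without the new-sorting array, where the step was 0.11 (adjusted p = 0.31, limma), and without either manual array (adjusted p = 0.0532, limma). CTNNA3, which encodes a catenin of cell junctions, held 2 members on chromosome 10. The one at 69250001 to 69500000, beside SIRT1 and HERC4 on the early side, had the largest K562 step among these genes. It was 0.71 and 0.80 on the automated, 0.87 and 0.91 on the manual and then 0.73 and 0.82 on the K562 arrays, with a K562 mean of 0.77 ± 0.06 (SD, n = 2; adjusted p = 0.000129, limma).

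MAGI2, a scaffold gene of cell junctions, on chromosome 7 (77750001 to 78000000) had manual steps of 0.39 and 0.42 and K562 steps of 0.63 and 0.46. PDE4D, a cAMP phosphodiesterase gene, on chromosome 5 (59750001 to 60000000) had 0.39 and 0.28 in manual U2OS and 0.34 and 0.28 in K562. LARGE, a glycosyltransferase gene, on chromosome 22 (33500001 to 33750000) had 0.26 and 0.20 in manual U2OS and 0.36 and 0.24 in K562. PARD3B, a cell polarity gene, on chromosome 2 (206250001 to 206500000) was the 1 window of the 11 with a called difference. Its manual steps were 0.51 and 0.49 and its K562 steps 0.08 and 0.19, a difference of -0.36 (SE 0.09; adjusted p = 0.0381, limma) that did not pass without either manual array (adjusted p = 0.305 and 0.244, limma).

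Gene names on the probes, which the rule did not use, were unequally spread over the step. The early, middle and late windows named 3.31, 2.11 and 1.53 different genes on average, against 2.95, 2.72 and 2.48 when early and late were assigned in the same way over all windows. No gene was named in 4.06% of the early, 12.04% of the middle and 18.7% of the late windows, against 11.46%, 13.4% and 15.3%. The early window named more genes at 520 of the 739 members (70.4%), the late window at 100, and both the same number at 119, where over all windows the early side named more at 46.6%. Among members whose step was called in K562 this share was 76.8%, and among the 153 with a smaller K562 step it was 64.1%. No matching share was counted over all windows with the same K562 calls. The number of probes moved with the number of names, with medians of 17, 15 and 14 in the early, middle and late windows. Its part in the count of names was not tested. The share of probes that carry a gene name was 69.4%, 62.0% and 58.8%, against 64.9%, 63.8% and 62.6% over all windows. By this share the early window was the higher at only 388 members (52.5%), against 45.3% of all windows.

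The base composition of the probes differed little. Mean GC content was 36.5%, 36.4% and 36.3% from early to late, and the early side was the higher at 54.9% of members against 49.8% of all windows. The array's probes are designed to a narrow composition, so these values do not give the GC content of the genome there. A gene with probes in both the early and the late window was found at 74 members (10.01%), against 9.27% of all windows, near the background. DLG2 did so at 3 members, and CTNND2, GPC6, KIAA1217 and RGS6 at 2 each.

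**Figure D5:**
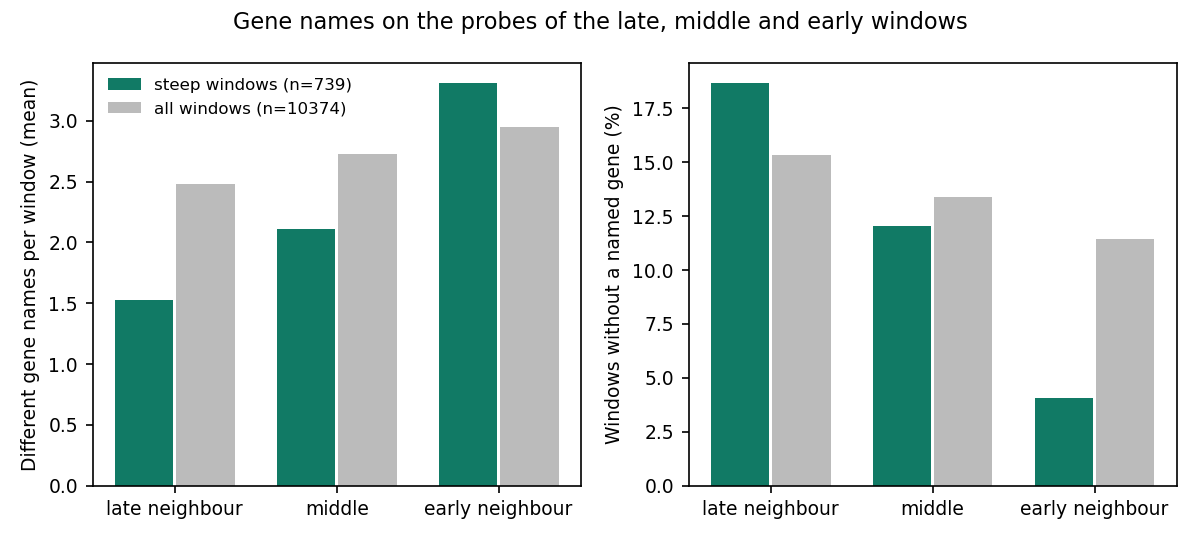
Mean number of different gene names per window (left) and percentage of windows without a named gene (right) for the late neighbour, the middle and the early neighbour, in the 739 steep windows and in all 10374 windows. The steep windows go from 1.53 names on the late to 3.31 on the early side, and from 18.7% to 4.06% without a name.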

How the data were processed

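Spot intensity and a log10 ratio were deposited, written by Agilent Feature Extraction 11.5.1.1 per the file headers (version 9.1 per the submitters' processing notes). Mean signal less median local background, floored at 10 units, gave log2(early/late) per probe. Spots of a probe were averaged, then the 161223 autosomal probes in windows of 250 kb with at least 3 probes, ranked within each array. The step was fitted with limma 3.58.1 (lmFit, eBayes) over 4 arrays (K562 new and old sorting, U2OS manual) with a shared spread and Benjamini-Hochberg adjustment over 10374 windows; automated arrays entered only an alternative with all 6 arrays. A simulation of K562 minus manual U2OS drew independent normal values on 4 arrays, with 200 of 10374 windows shifted. It recovered 44.0% of steps shifted by 0.5 and 99.5% of those shifted by 0.8. Bounded ranks, overlapping windows and the 2 sorting methods were not simulated, so the rates may differ in the data. Windows are named by rules: the largest automated steps, the largest and smallest differences between lines, reversed K562 steps, windows at the rule's edge and fragile site genes. The members and lists were chosen with earlier results of these data known. Alternatives were the deposited log10 ratio, normexp, a floor of 1, probe filters, medians, MAD scaling, a replicate block, other sets of arrays and each array left out. A slide block could not be fitted. One window that the rules select is not reported here.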

Additional observations from a re-analysis of the deposited data

Results flagged for a closer look

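Results listed here are those where the test of the difference between K562 and manual U2OS passed. It did so at 160 of the 739 windows. Among the named windows, the difference in step (K562 minus manual U2OS, in rank) was -1.02 between PDGFRA and KIT, -1.01 at DNAH5, -0.96 at SNAI2, and -0.89 both at ABCA13 and at the unnamed window on chromosome 3. It was -0.78 beside SASH1, -0.65 at SCN3B, -0.58 at GBX2, -0.56 at GRIN2B and at TENM2, -0.52 at ADCY8, -0.49 at SYT16 and -0.43 at XPNPEP1. At VTA1 and NMBR, just inside the rule, and at PARD3B it was -0.36. At VTA1 and NMBR the call was lost without either manual array, and at GBX2 likewise; at SCN3B and SASH1 it was lost without manual array 1. All of these were smaller or reversed steps in K562, the direction that choosing windows in U2OS favours. No group had enough arrays for a test of outlying samples.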

How the results depend on the processing

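Differences that had not passed the test changed sign under some settings. That at PTPRM ranged from -0.221 to 0.0196 with an array left out. That at chromosome 8, 123250001, was 0.0233 with the deposited ratio, and -0.33 with all 6 arrays, which include the automated arrays that chose the window. That at the right wall of DLG2 was 0.0672 (deposited ratio), 0.013 (probes well above background) and 0.0239 (all 6 arrays, with or without the replicate block), and ranged from -0.134 to 0.0276 with an array left out. No step, difference or level that had passed the test reversed in these settings. With at least 10 probes per window, 403 of 420 members had a called manual step, 284 a called K562 step, 50 had an earlier late window and 292 more genes on the early side; with the array labelled 44k the first 2 counts were 400 and 299 of 430, and 84 late windows were earlier. Both settings test fewer windows, and the shares over all windows were not counted for them. The count of differing steps was 294 with all 6 arrays of the larger design and 248 with a replicate block on the shared numbers as well, but the automated arrays in both chose the members, so these counts support nothing. The numbers did not pair the arrays (r = -0.01). Alternatives for the level of single windows were chosen after seeing the data. Shares over all windows were counted for no alternative setting, and not with an array left out. The early window was later in K562 at 129 (deposited ratio), 100 (normexp), 101 (probes well above background), 182 (all 6 arrays) and 153 (with the replicate block). The late window was earlier at 105, 47, 63, 143 and 104 under the same settings and at 17 on the MAD scale; the cause was not tested. Leaving out each array gave 411 to 716 manual steps, 425 to 475 K562 steps, 8 to 319 differing steps, 0 to 212 later early windows and 0 to 141 earlier late windows. Of 232 values of named windows with an array left out, 187 kept direction and call, 41 lost the call, 1 gained it and 3 reversed; under other settings 503 of 519 kept both, 8 lost the call, 3 gained it and 5 reversed. Signal over background differed between arrays, and its limit on each was not compared.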

Other observations

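The 7 windows with a larger step in K562 were named after their values were seen. They included a window at TTN, the giant sarcomere protein gene, on chromosome 2 (179500001 to 179750000), with a mean step of 0.30 in manual U2OS and 0.75 in K562 (adjusted p = 0.0175, limma). Another lay at CORIN and CNGA1 on chromosome 4 (47750001 to 48000000), with the lymphoid kinase genes TEC and TXK on its early side, and had 0.43 and 0.78 (adjusted p = 0.0458, limma). A window within LAMA2, a laminin gene, on chromosome 6 (129500001 to 129750000) had 0.22 and 0.65 (adjusted p = 0.0463, limma), and one at ST7 and WNT2 on chromosome 7 (116750001 to 117000000) had 0.33 and 0.69 (adjusted p = 0.0398, limma).

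Gene families were counted by name in the middle windows. Olfactory receptor genes, a large family of clustered odorant receptors, were named in 6 members, 0.812% against 0.366% of all windows. Zinc-finger genes of the ZNF series were named in 18 members, 2.44% against 2.60%, and cadherin or protocadherin genes in 7, 0.947% against 0.742%. HOX, keratin and histone genes were named in none of the middle windows, where all windows together held 6, 14 and 6 such windows.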
